A study of Penicillium oxalicum with 6 samples.

Results

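The genes described here are 5 genes of *Penicillium oxalicum* whose products act on pectin and on arabinan side chains. They were chosen by gene ID among the 11159 rows listed for each library, of which 9822 carry an annotated gene ID. They are the putative pectin lyase gene *POX_d05538* (family PL1), the putative endopolygalacturonase gene *POX_d05641* (GH28), the putative α-L-arabinofuranosidase genes *POX_d05217* and *POX_c03491* (both GH43) and the α-N-arabinofuranosidase gene *POX_a00012* (GH54). The genes were picked with their higher FPKM in GXUR001 than in TE4-10 already known, so that difference is given below as a description and no test of it was made.

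Pectin is a plant cell wall polysaccharide with a backbone of galacturonic acid units, some stretches of which carry side chains rich in arabinose and galactose. Pectin lyases cut the methylated backbone by elimination, whereas endopolygalacturonases hydrolyse the unmethylated backbone. Arabinofuranosidases release single arabinose units from arabinan side chains, and many of them also act on arabinoxylan, the main hemicellulose of cereal bran. Filamentous fungi secrete such enzymes together when they grow on plant material.

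RNA-seq compared mycelium of strain GXUR001 with that of its parental strain TE4-10. Spores were grown in glucose medium for 24 h, and mycelia were then transferred to an induction medium for 24 h. The sample labels name raw starch as the only carbon source of that medium, whereas the paper names wheat bran plus Avicel (microcrystalline cellulose), and this difference was not resolved. TE4-10 is labelled as wild type, although by the paper it is a mutant obtained by ethyl methanesulfonate and γ-ray mutagenesis from a strain that already lacked *PoxKu70* and overexpressed the glucoamylase gene *PoxGA15A* from a cellulose-inducible promoter. GXUR001 carries all of this and in addition lacks the repressor gene *PoxCxrC* and overexpresses the activator gene *PoxAmyR* (*POX_f08097*). Both changes were made in the same strain, so their parts cannot be told apart. Each group is 1 strain with 3 biological replicates by the paper. All 3 GXUR001 libraries were used, but of TE4-10 only replicates 1 and 3, and TE4-10 replicate 2 was not analysed here.

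The unit is FPKM, fragments relative to gene length and library size. How many fragments lie behind a value is not stated, but low FPKM values come in steps of whole reads, and the size of these steps gave the GXUR001 libraries 1.053 to 1.091 times as many reads as those of TE4-10. Pearson's *r* of log2(FPKM + 1) across all rows was 0.9697 for the TE4-10 pair and 0.9782 to 0.984 within GXUR001, where genes are not independent replicates. Between the strains it was 0.9675 to 0.9676 for TE4-10 replicate 3, close to its value with TE4-10 replicate 1. For TE4-10 replicate 1 it was 0.9505 to 0.9526. With 2 TE4-10 libraries it cannot be told which of them is the less typical. Without TE4-10 replicate 1 the log2 fold changes of the 5 genes described below were 1.63 to 2.17. Without TE4-10 replicate 3 they were 1.19 to 2.38. Most genes had lower FPKM in GXUR001 (median log2 fold change -0.26), and each library was therefore also divided by a factor, 1.14 and 1.10 for TE4-10 and 0.875, 0.917 and 0.991 in GXUR001, which moved that median to 0.00. Values after this step are called rescaled, and FPKM means the deposited value unless stated. Below, values are listed in the order of replicates 1 and 3 for TE4-10 and of replicates 1, 2 and 3 for GXUR001. As checks, FPKM of *PoxAmyR* was 62.8 and 66.7 for TE4-10 against 90.6, 84.1 and 74.3 for GXUR001. Its log2 fold change was 0.62 after rescaling (limma adjusted p = 0.0489) and 0.35 as deposited (limma adjusted p = 0.0785). Whether it passes the threshold of 0.05 thus depended on the scaling. For the actin gene *POX_c04656* FPKM was 2038 and 2305 against 1751, 1687 and 1650.

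The mRNA of all 5 genes was more abundant in GXUR001, by 2.75-fold to 4.84-fold (from log2 fold changes, log2FC, of log2(rescaled FPKM + 1), each given with its standard error, SE). In each of the 5 genes every GXUR001 library lay above both TE4-10 libraries, as deposited and rescaled, a pattern found in 12.6% of all 9636 genes tested (26.7% when only rescaled values are asked to separate). Since the genes were picked for being higher, nothing is read from this count. In mRNA of whole mycelium, a change in the share of hyphae that express a gene and a change in the RNA per hypha cannot be told apart.

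**Figure D1:**
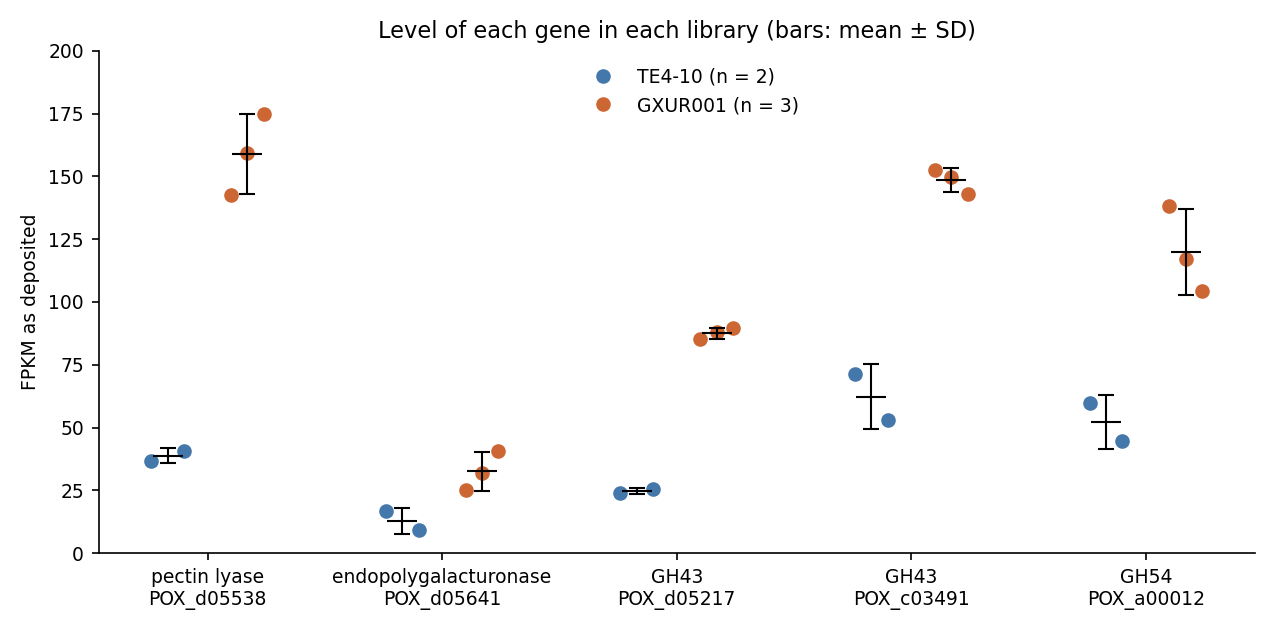
FPKM as deposited (y axis) of the 5 genes (x axis) in each library, with TE4-10 replicates 1 and 3 in blue and GXUR001 replicates 1, 2 and 3 in orange, each point being 1 library and the black bars the mean ± SD. For every gene the orange points lie above the blue ones, with the widest gap for *POX_d05538* and the narrowest for *POX_d05641*.

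The 2 enzymes of the pectin backbone differed in level. *POX_d05538*, which encodes the putative pectin lyase, had 36.7 and 40.8 FPKM in the parental strain, and 143, 159 and 175 FPKM in GXUR001. The TE4-10 values were close to each other, and even the lowest GXUR001 value was 3.49 times the highest TE4-10 value. Means were 38.8 ± 2.96 FPKM (SD, n = 2) and 159 ± 16.1 FPKM (SD, n = 3), which gave a log2FC of 2.28 (SE 0.10), the largest of the 5 genes. After rescaling the GXUR001 libraries varied by 1.08-fold (163 to 176 rescaled FPKM).

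*POX_d05641*, the putative endopolygalacturonase gene, had the lowest level of the 5 genes in every library. TE4-10 had 16.6 and 9.21 FPKM, and GXUR001 25.2, 32.0 and 40.7 FPKM. The strains did not overlap, but the TE4-10 libraries differed by 1.73-fold from each other after rescaling, and the lowest GXUR001 value was 1.51 times the highest TE4-10 value. Means were 12.9 ± 5.25 FPKM (SD, n = 2) and 32.6 ± 7.80 FPKM (SD, n = 3). The log2FC of 1.56 had the largest SE of the 5 genes (0.26), and leaving out TE4-10 replicate 1 or 3 gave 1.91 or 1.19.

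Among the arabinofuranosidase genes, *POX_d05217* (GH43) had the lowest level and the largest fold change. Its FPKM was 23.8 and 25.7 in TE4-10 against 85.3, 87.9 and 89.7 in GXUR001. Replicates were closest for this gene, with a coefficient of variation of 8.14% in TE4-10 and 3.90% in GXUR001 after rescaling. Its log2FC of 2.05 (SE 0.09) is a 4.15-fold difference.

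*POX_c03491*, the other GH43 member, had 71.5 and 53.1 FPKM in the TE4-10 libraries, while the GXUR001 libraries had 152, 150 and 143 FPKM. TE4-10 replicate 1 was 1.29 times replicate 3 after rescaling, and the lowest GXUR001 value was 2.00 times the highest TE4-10 value as deposited. The log2FC was 1.53 (SE 0.15). The level of *POX_d05217* relative to that of *POX_c03491* is a ratio within a library that does not depend on the rescaling. It came to 0.333 and 0.484 for TE4-10 against 0.559, 0.587 and 0.627 for GXUR001. The strains did not overlap, but with so few libraries this ratio was not tested.

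*POX_a00012* encodes an arabinofuranosidase of family GH54 that is also listed with the arabinose-binding module CBM42. Its FPKM was 59.9 and 44.6 for TE4-10 against 138, 117 and 104 for GXUR001. Here the spread between GXUR001 libraries was the widest of the 5 genes (1.50-fold, rescaled), yet the lowest of them was 1.74 times the highest TE4-10 value as deposited. The log2FC of 1.46 (SE 0.20) was the smallest of the 5.

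The order of the levels changed at the top. In both TE4-10 libraries it was *POX_c03491*, *POX_a00012*, *POX_d05538*, *POX_d05217* and *POX_d05641*, from high to low. The values of *POX_c03491* and *POX_a00012* overlapped in TE4-10, whereas the other neighbours in this order did not. In GXUR001 *POX_d05538* stood first in replicates 2 and 3 and second in replicate 1, and its values overlapped those of *POX_c03491*, so that their order is not settled. Below them followed *POX_a00012*, *POX_d05217* and *POX_d05641*, with no overlap between neighbours. Among the annotated genes, ranked by mean FPKM, *POX_d05538* stood at percentile 57.1 in TE4-10 and 88.5 in GXUR001, and *POX_c03491* at 69.5 and 87.6. *POX_a00012* moved from percentile 65.0 to 84.7, *POX_d05217* from 45.7 to 79.7 and *POX_d05641* from 31.8 to 58.0. By log2FC the 5 genes held places 43 (*POX_d05538*), 63 (*POX_d05217*), 146 (*POX_d05641*), 157 (*POX_c03491*) and 176 (*POX_a00012*) of 8490 annotated genes tested.

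Summed over the 5 genes, the level was 208 and 173 FPKM in TE4-10, and in GXUR001 it was 544, 546 and 552 FPKM. This was 0.0164% and 0.0142% of all FPKM of a TE4-10 library and 0.0443%, 0.0442% and 0.0426% of a GXUR001 library. The highest sum in GXUR001 was 1.02 times the lowest as deposited, but 1.12 times after rescaling, where the sums were 182 and 158 in TE4-10 and 622, 596 and 557 in GXUR001. The pectin lyase and endopolygalacturonase genes together gave 168, 191 and 216 FPKM in GXUR001, and the 3 arabinofuranosidase genes 376, 355 and 337 FPKM, so the library with the least of the former had the most of the latter. In TE4-10 the former gave 53.3 and 50.1 FPKM and the latter 155 and 123 FPKM. Of these 2 backbone genes that of the pectin lyase had the higher level in every library, so their joint share mostly follows this gene. Together they held 25.6% and 28.9% of the summed level in TE4-10 and 30.9%, 35.0% and 39.0% in GXUR001. The strains did not overlap, but 28.9% and 30.9% lie closer together than the libraries within either strain. After rescaling, every GXUR001 library lay above both TE4-10 libraries in 26.7% of single genes tested and below them in 26.5%. The difference in this share was not tested. The ratio of the pectin lyase gene to the endopolygalacturonase gene did overlap, at 2.20 and 4.43 in TE4-10 and at 5.67, 4.98 and 4.29 in GXUR001.

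**Figure D2:**
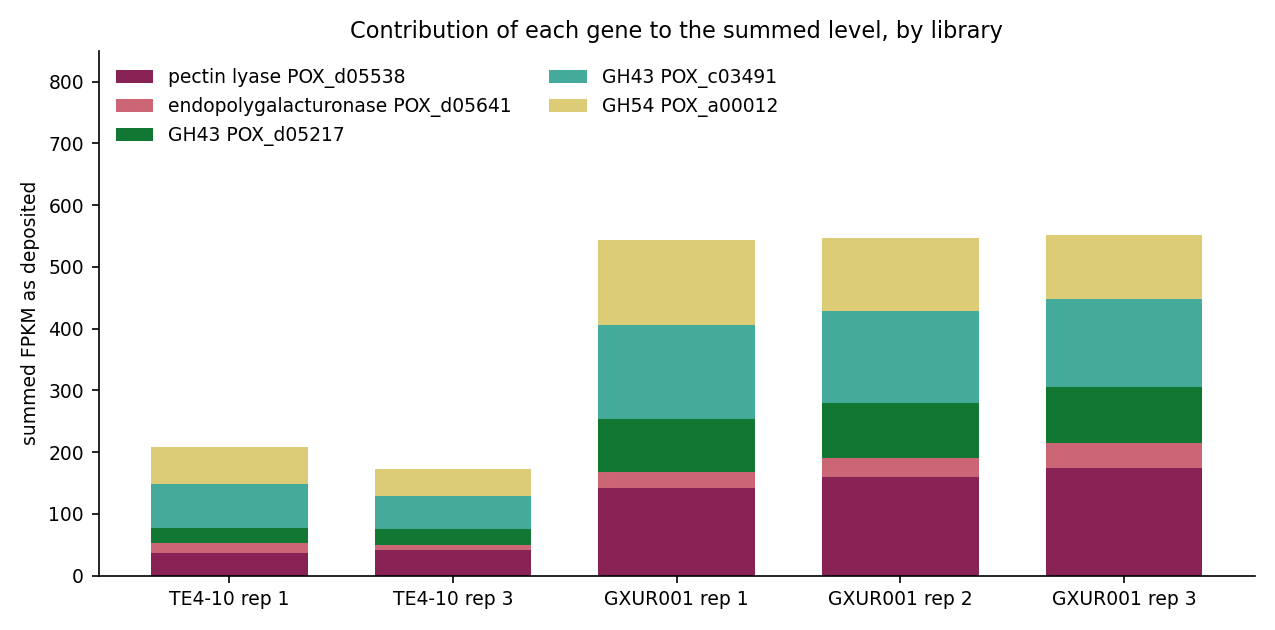
Summed FPKM as deposited (y axis) of the 5 genes in each of the 5 libraries (x axis), each colour being 1 gene. The GXUR001 bars reach 544 to 552 FPKM against 173 and 208 FPKM in TE4-10, and the pectin lyase segment takes a larger part of them.

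The genes were also compared by their profiles over the 5 libraries. These profiles include the strain difference for which the genes were picked. Likeness among the 5 genes therefore partly repeats the log2FC values above, and it was not tested. The root mean square difference of the centred log2 profiles was 0.11 between *POX_a00012* and *POX_c03491*, both higher in TE4-10 replicate 1 than in replicate 3 after rescaling, and 0.13 between *POX_d05217* and *POX_d05538*, both slightly lower there. Each other pair of the 5 genes differed by 0.27 to 0.49. Among 6890 other annotated genes (mean FPKM of 10 or more), the nearest profile to *POX_c03491* was that of *POX_f08277* (difference 0.02, against a median of 0.79 over all these genes), followed by *POX_e06720* (0.07). *POX_f08277* had a far higher level, 800 and 588 FPKM in TE4-10 and 1618 to 1714 FPKM in GXUR001. The nearest to *POX_a00012* were *POX_b03115* (0.08) and again *POX_f08277* (0.11). For *POX_d05217* they were *POX_d05590* (0.04) and *POX_f07602* (0.06), for *POX_d05538* they were *POX_e06505* (0.10) and *POX_d05590* (0.11), and for *POX_d05641* they were *POX_e06770* (0.13) and *POX_g08976* (0.19). *POX_b03115* and *POX_d05590* are listed as hypothetical proteins. These genes were found by their likeness on the same libraries, so they carry no test.

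The other genes of pectin and arabinan breakdown did not all move in this direction. A list of 10 was drawn from the part of the study's table of changed genes at hand (gene IDs *POX_a* to *POX_d*), by the first-listed enzyme family. That table holds only genes the study picked as changed on these samples, so the counts are not independent evidence and genes of the pathway outside it are not described. In the limma test with Benjamini-Hochberg adjustment over all 9636 genes tested, 3 of the 10 were higher and 3 lower in GXUR001 at an adjusted p under 0.05, and 4 did not pass. Of all genes tested 9.74% were called higher and 8.08% lower (17.8% in all). The median log2FC of the 10 genes was 0.59, against 0.00 over all genes tested and 1.56 for the 5 genes above.

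The 3 genes of this list called higher carry putative names of galactan, arabinan or rhamnogalacturonan breakdown. Genes with related putative names fell (*POX_a01929*) or did not pass (*POX_c03492*, *POX_a00185* and *POX_a00706*), so no theme is read from the names. *POX_a00712*, a putative exo-β-1,3-galactanase gene (GH43), rose from 88.3 and 70.9 FPKM in TE4-10 to 151, 159 and 167 FPKM in GXUR001, a log2FC of 1.27 (SE 0.10, limma adjusted p = 0.00675). *POX_b03436*, a putative exo-arabinanase gene (GH93) whose product would shorten arabinan chains from their ends, rose from 25.2 and 40.0 FPKM to 55.6, 63.9 and 68.9 FPKM (log2FC 1.22, SE 0.21, limma adjusted p = 0.0222). *POX_b02031*, a putative rhamnogalacturonase gene (GH28), rose from 29.9 and 28.7 FPKM to 41.5, 39.3 and 48.9 FPKM (log2FC 0.81, SE 0.10, limma adjusted p = 0.0107). In each of these genes all GXUR001 values lay above both TE4-10 values.

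Genes of the same families fell. *POX_a01929*, a putative β-xylosidase/arabinofuranosidase gene (GH43), fell from 46.7 and 47.0 FPKM to 22.7, 23.9 and 23.6 FPKM (log2FC -0.70, SE 0.09, limma adjusted p = 0.0118). *POX_d05448*, a GH43 gene listed as a hypothetical protein, fell from 36.3 and 34.3 FPKM to 14.8, 14.9 and 21.3 FPKM (log2FC -0.76, limma adjusted p = 0.0257). *POX_d05886*, a putative exopolygalacturonase gene (GH28), whose product would remove single units from the chain end, fell from 9.27 and 6.18 FPKM to 1.92, 2.07 and 2.70 FPKM (log2FC -1.20, SE 0.21, limma adjusted p = 0.0234). Within GH28 the endopolygalacturonase gene *POX_d05641* had 12.9 FPKM on average in TE4-10 and 32.6 FPKM in GXUR001. The exopolygalacturonase gene *POX_d05886* had 7.73 and 2.23 FPKM, which are low levels. The former was picked for being higher and the latter as changed, so nothing is read from their opposite directions. Of the 4 GH28 genes at hand, counting *POX_d05641*, 3 had a positive and 1 a negative log2FC. Of the 7 GH43 genes at hand, counting *POX_d05217* and *POX_c03491*, 5 had a positive and 2 a negative log2FC. Over all 9636 genes tested, 4825 had a positive log2FC. *POX_d05217* and *POX_c03491* were picked for being higher and the rest as changed, so nothing is read from this count.

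The genes that did not pass include the most abundant of all. *POX_c03492*, a putative arabinofuranosidase gene of family GH62 with a cellulose-binding module, was at 1031 and 523 FPKM in TE4-10 and at 1583, 1495 and 1228 FPKM in GXUR001. In every library it exceeded the sum of the 5 genes above, by 2.22-fold to 4.95-fold. The strains did not overlap, and the log2FC was 1.23 (SE 0.31), but the adjusted p from limma was 0.0504, and alternatives gave 0.032 to 0.163. *POX_a00185*, a putative arabinofuranosidase gene (GH43), had 9.29 and 17.5 FPKM in TE4-10 and 21.3 to 22.3 FPKM in GXUR001 (log2FC 0.99, limma adjusted p = 0.0591). *POX_d05464* (GH43) and *POX_a00706* (GH28) had log2FC values of 0.37 and 0.32, and their FPKM as deposited overlapped between the strains.

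The calls on this list, like those over all genes, depended on single libraries. Leaving out GXUR001 replicate 2 left 0 of the 10 genes called by limma, with 8 at an unadjusted p under 0.05. Over all genes that fit called 17 (0.177%), with 2299 at an unadjusted p under 0.05. Leaving out GXUR001 replicate 1 left 3 of the 10 called, and 5.57% of all genes. The log2FC moved little without GXUR001 replicate 2, to 1.26 for *POX_a00712*, 0.87 for *POX_b02031* and -0.72 for *POX_a01929*. Without GXUR001 replicate 2 the adjusted p from limma was 0.0623 for *POX_a00712*, 0.0654 for *POX_b02031* and 0.0811 for *POX_a01929*, which were called without any other single library. *POX_b03436* also lost its call without GXUR001 replicate 1 (0.066) or 3 (0.0709). Among the fits that left out 1 library, *POX_d05448* kept its call only without GXUR001 replicate 3, and *POX_d05886* only without TE4-10 replicate 3.

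**Figure D3:**
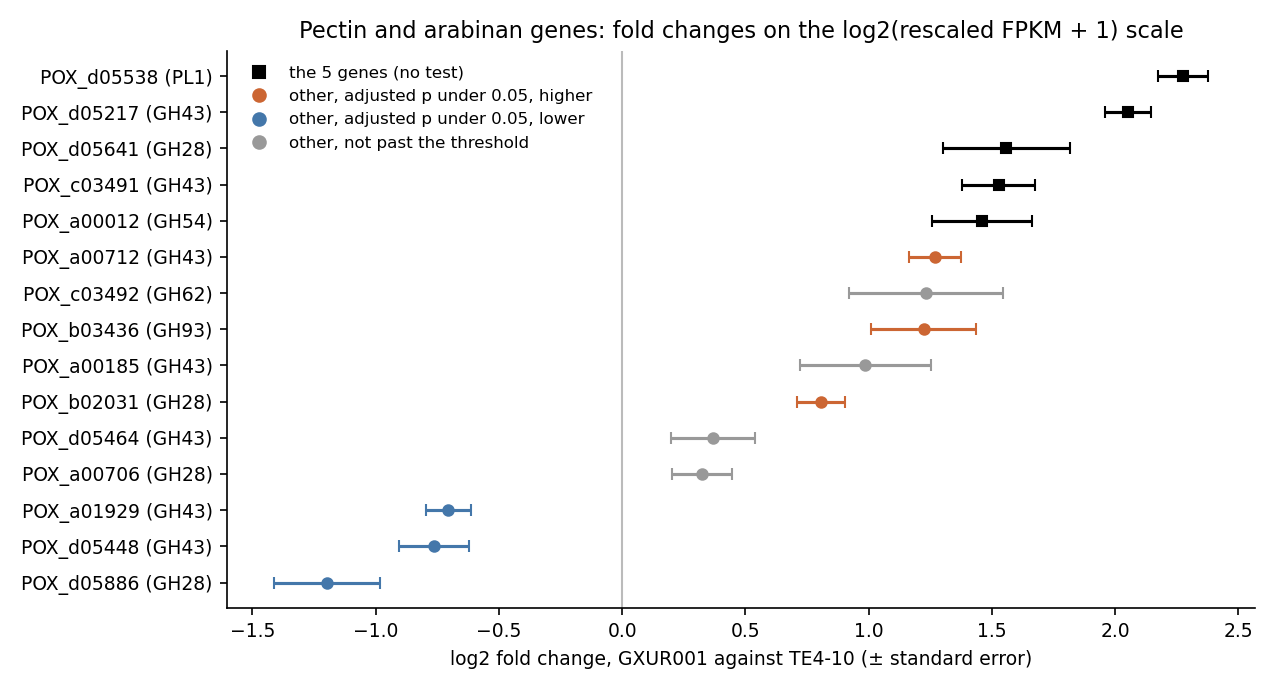
Log2 fold change of GXUR001 against TE4-10 (x axis, log2(rescaled FPKM + 1) scale, bars ± standard error) of the 5 genes (black squares, no test) and the other 10 pectin and arabinan genes (circles), with the first-listed enzyme family. The 5 genes lie between 1.46 and 2.28, while 3 of the others rose (orange), 3 fell (blue) and 4 did not pass the threshold (grey).

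The genes next to the 5 genes on the chromosome, 2 on each side in the order of the reference gene table, were also examined. Of these 20 neighbours 17 passed the filter on FPKM, and 4 of them (23.5%) were called by limma, all of them higher in GXUR001. Of all genes tested 17.8% were called, and 9.74% were called higher. None was called lower (0 by limma). At an unadjusted p from limma under 0.05 there were 5 higher and 1 lower, a threshold that 3436 of all 9636 genes tested passed. The median log2FC of the neighbours was 0.02. The direction of their calls depended on the scaling: with FPKM as deposited 0 neighbours were called higher and 3 lower. The calls over all genes moved likewise, with 463 of 2661 (17.4%) higher as deposited.

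Among the 17 neighbours tested, every GXUR001 library lay above both TE4-10 libraries in 6 and below them in 4 after rescaling (26.7% and 26.5% of all genes tested), and 7 overlapped. The 4 below were *POX_a00014* next to *POX_a00012* and *POX_d05639*, *POX_d05642* and *POX_d05643* around *POX_d05641*. Of the 6 above, 3 lay next to *POX_c03491*. *POX_c03490*, a putative endo-β-1,4-xylanase gene of family GH30, precedes it, and the GH62 arabinofuranosidase gene *POX_c03492* follows it. *POX_c03490* was at 410 and 236 FPKM in TE4-10 and at 525, 546 and 527 FPKM in GXUR001, so that like *POX_c03491* and *POX_c03492* it was higher in TE4-10 replicate 1 than in replicate 3. It rose by a log2FC of 1.05 (SE 0.22, limma adjusted p = 0.0346), which was 0.77 (limma adjusted p = 0.0588) with FPKM as deposited. Without GXUR001 replicate 1, 2 or 3 its adjusted p from limma was 0.0967, 0.133 and 0.0836. *POX_c03493*, listed as a hypothetical protein, was also called (log2FC 0.50, SE 0.10, limma adjusted p = 0.0312), but with FPKM as deposited the log2FC was 0.23 (limma adjusted p = 0.134), and of the 5 fits that left out 1 library only the one without TE4-10 replicate 3 kept the call. *POX_c03489*, the second gene before *POX_c03491*, had a log2FC of 0.06 (SE 0.09). The ratio of *POX_c03492* to *POX_c03491* within a library came to 14.4 and 9.87 for TE4-10 against 10.4, 9.98 and 8.59 for GXUR001, so the GXUR001 values overlapped those of TE4-10.

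The other neighbours that were tested had smaller log2FC values than the genes they flank. Next to *POX_d05538*, whose log2FC was 2.28, *POX_d05536* had 0.57 (SE 0.11, limma adjusted p = 0.0257), which was 0.29 and not called with FPKM as deposited (limma adjusted p = 0.0638) or without any single library other than GXUR001 replicate 3 (adjusted p from limma of up to 0.126). *POX_d05216*, next to *POX_d05217*, had 0.49 (SE 0.11, limma adjusted p = 0.0429) and lost its call without any single library. The neighbours of *POX_d05641* and *POX_a00012* that were tested had log2FC values of -0.42 to 0.11, and none passed the threshold by limma. *POX_a00011*, the gene before *POX_a00012*, was listed at 0 FPKM in 4 of the 5 libraries. Also below the filter, and so not tested, were *POX_d05218* after *POX_d05217* and *POX_d05539* after *POX_d05538*. *POX_d05218* had 0.26 and 0.39 FPKM in TE4-10 and 0.71, 1.29 and 1.36 FPKM in GXUR001. *POX_d05539* had 0.44 and 0.53 against 0.86, 0.94 and 1.04 FPKM. Both were higher without overlap, by ratios of rescaled means of 4.11 and 2.35, at levels near the floor.

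**Figure D4:**
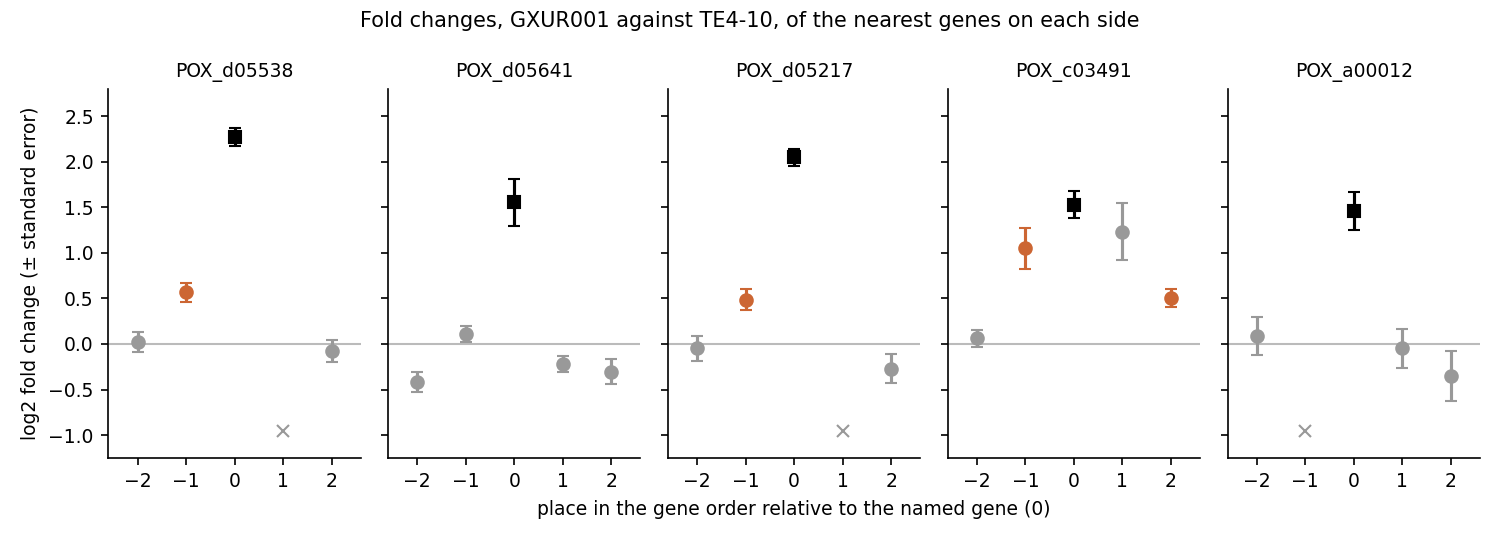
Log2 fold change of GXUR001 against TE4-10 (y axis, bars ± standard error) by place in the gene order around each of the 5 genes (x axis, 0 being the gene itself, black square). Orange circles are neighbours with an adjusted p under 0.05, grey circles did not pass and crosses mark neighbours below the FPKM filter. Around *POX_c03491* 3 of the 4 neighbours lie between 0.50 and 1.23, while elsewhere the tested neighbours lie between -0.42 and 0.57.

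The fold changes of the 5 genes were followed over the processing choices. Over 60 combinations of gene and alternative, every log2FC lay between 1.19 and 2.38, and no choice moved a fold by more than 1.29 times. The direction is that for which the genes were picked, so nothing is read from it. Changing the filter or the eBayes trend leaves these log2FC values unchanged by construction. *POX_d05641* ranged most, from 2.28-fold to 3.77-fold when a TE4-10 library was left out. With FPKM as deposited, the smallest log2FC was that of *POX_a00012* (1.19) and the largest that of *POX_d05538* (2.00). *POX_d05538* and *POX_d05217* held the first and second place under each of these alternatives, whereas the order of the remaining 3 genes varied.

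**Figure D5:**
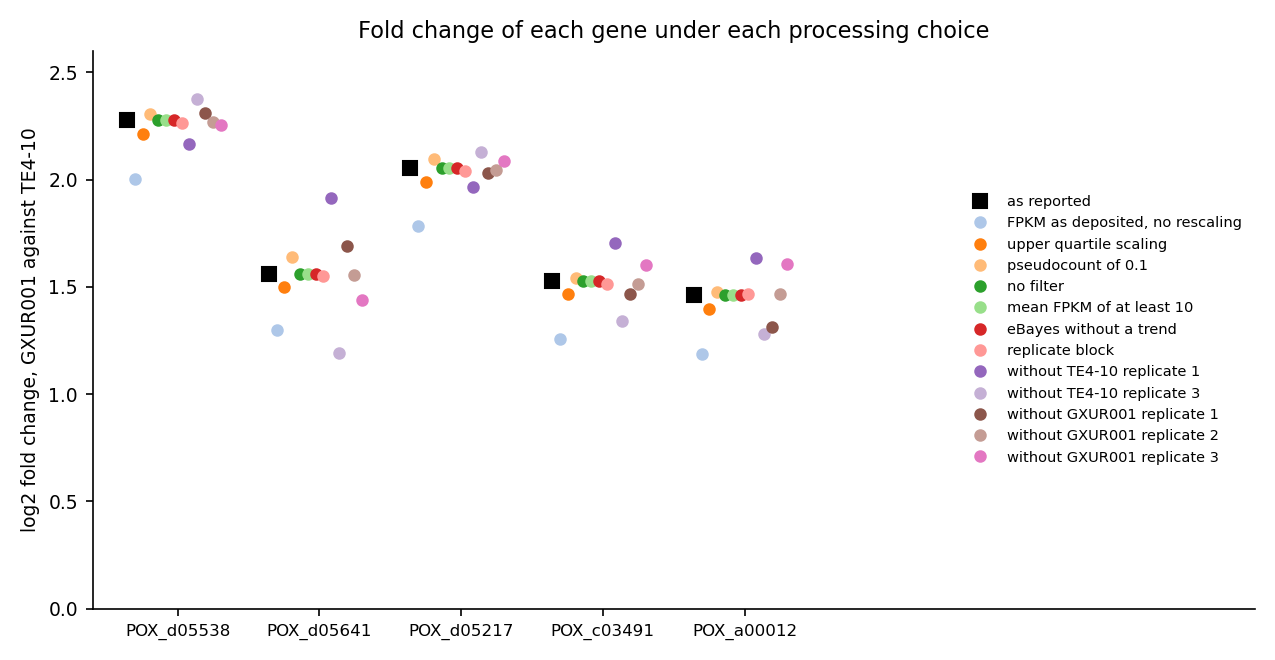
Log2 fold change of GXUR001 against TE4-10 (y axis) of each of the 5 genes (x axis), as reported (black squares) and under each alternative (coloured circles, 1 alternative each). All values lie between 1.19 and 2.38, and those of *POX_d05641* spread most, between 1.19 and 1.91 when a TE4-10 library is left out.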

How the data were processed

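RNA-seq libraries of GXUR001 (n = 3) and TE4-10 (n = 2) were used. FPKM values were deposited by the authors in a separate file for each library. The submitters' processing notes name bcl2fastq and HISAT2, and by the paper reads were matched to the genome of strain HP7-1. The counting tool, the handling of strand and the annotation version are not given in the sources used here, so how reads shared between similar or overlapping genes were assigned is unknown. FPKM values are not counts, and no count test was used.

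Libraries were rescaled by median ratios (each to the geometric mean across libraries, factors set to a geometric mean of 1). Rows with 1 FPKM or more on average were kept (9636 of 11159), log2(FPKM + 1) was taken, which understates the change of low genes, and strains were compared by limma 3.58.1 in R 4.3.3 (eBayes with a trend, Benjamini-Hochberg adjustment, threshold 0.05). The residual and prior degrees of freedom were 3 and 2.45. The fit was tested on simulated data. An exact permutation test of 2 against 3 libraries cannot reach the threshold and was not used.

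The 5 genes, the lists, the scaling and the tests were chosen with earlier results of these data known. Named genes were the 5 genes, the 10 listed pathway genes, called neighbours, the 2 nearest profiles for each gene, actin and *PoxAmyR*. Other neighbours were named after their values were seen. A list by product name was planned and not made, since the reference table used (ASM172317v3, 9718 of 9822 IDs matched) was used only for IDs and gene order. Enzyme names and families are those of the paper's supplementary table. Promoters were not analysed here. Other choices tried were no rescaling (deposited FPKM), scaling to percentile 75 (upper quartile), 0.1 as pseudocount, the filter dropped or raised to a mean of 10 FPKM, eBayes with no trend, a block for replicate number, leaving out single libraries, calls by unadjusted p, and calls that also need an absolute log2 fold change of 1 or more. Figures were drawn with matplotlib 3.10.9.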

Additional observations from a re-analysis of the deposited data

How the results depend on the processing

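No alternative reversed the direction of any of the 5 genes, but the genes were picked for that direction, so nothing is read from this. Their median log2 fold change of 1.56 was 1.30 with FPKM as deposited and 1.34 to 1.91 when single libraries were left out. Where values below differ from those reported, the cause was not tested beyond what an alternative is by construction.

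Of 9636 genes, 1718 (54.7% of them higher) were called by limma. FPKM as deposited gave 2661 (17.4% higher), upper quartile scaling 1840 (43.4% higher), an unadjusted p under 0.05 gave 3436, and an added absolute log2 fold change of at least 1 gave 476. Leaving out single libraries gave 17 to 1836 calls, the fewest without GXUR001 replicate 2. Leaving out a TE4-10 library leaves 1, which is then assumed to vary like GXUR001.

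Of the 10 pathway genes, 6 were called (3 higher, 3 lower). An unadjusted p gave 6 higher, a mean FPKM of at least 10 gave 5 higher, and an added log2 fold change of at least 1 gave 3 (1 lower). Without single libraries 0 to 6 were called, 0 to 4 higher and 0 to 2 lower. Of the neighbours 4 were called, all higher. FPKM as deposited gave 0 higher and 3 lower, upper quartile scaling, a mean FPKM of at least 10 and an unadjusted p each gave 1 lower, and an added log2 fold change of at least 1 left 1, which was higher. Without single libraries 0 to 4 neighbours were called, 0 to 2 in each direction. The log2 fold change of actin (*POX_c04656*) was -0.08, but -0.35 with FPKM as deposited, and -0.20 to 0.04 without single libraries.

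Replicate numbers 1 and 3 are shared by the strains, but nothing in the labels says that they mark a shared culture or day. The deviations of same-numbered libraries correlated at -0.007 and 0.037 across genes, and those of differently numbered libraries at -0.052 to 0.052. With 2 TE4-10 libraries their deviations mirror each other by construction, so nothing is read from these values. With the replicate number as a block, 0 genes were called by limma and 2477 had an unadjusted p under 0.05. Of the pathway genes 0 were called (0 higher, 0 lower) and of the neighbours 0 (0 higher), with 8 and 5 at an unadjusted p under 0.05. The median log2 fold change of the 5 genes in that fit was 1.55.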
